A study of Homo sapiens with 60 samples.

Results

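Of the 60675 genes in the deposited count table, 9 encode the chemokines described here: CXCL1, CXCL2, CXCL3, CXCL5, CXCL8, CCL20, CXCL10, CXCL16 and CX3CL1. Their rows were found through the Ensembl identifier of each symbol. The set was chosen by the CPM of chemokine genes in these same libraries, over vehicle and all extract groups, so its levels are given as a description and calls on them support nothing. HT29 is an established line from a human colorectal adenocarcinoma, a tumour of epithelium. The cells were exposed for 24 h to water extracts from Korean herbal medicine or to a DMSO vehicle, which the sample labels put at 0.1% and the series description at 2%. Soyo-san, Guibi-tang, Soshiho-tang, Okbyeongpung-san and Saengmaek-san are decoctions of several herbs, and Menthae Herba and Saposhnikoviae Radix are single herbs. Each extract was given at a low dose of 20 µg/mL, a medium dose of 100 µg/mL and a high dose of 500 µg/mL. Every group had 3 libraries except Soshiho-tang, which had 1 library per dose, giving 60 libraries in 22 groups. The labels do not say whether replicates were separate cultures, so the spread between them may be technical.

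Chemokines are small secreted proteins that guide leukocytes along a concentration gradient. CXCL1, CXCL2, CXCL3, CXCL5 and CXCL8 carry a glutamate-leucine-arginine motif before their first cysteines, bind the receptor CXCR2 (CXCL8 also binds CXCR1) and draw neutrophils. CCL20 binds CCR6 and draws dendritic cells and lymphocytes to mucosal surfaces. CXCL10 is an interferon-induced ligand of CXCR3 on T cells. CXCL16 and CX3CL1 are made as transmembrane proteins and are released by the proteases ADAM10 and ADAM17. In colon epithelium the neutrophil chemokines and CCL20 are classical targets of the transcription factor NF-kB, which cytokines and bacterial products switch on.

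Read totals ran from 19.5 M (mega) to 41.9 M counts per library, with a median of 29.2 M. Levels are counts per M counts of the library (CPM), scaled by library-size factors from the trimmed mean of M-values (TMM). The first principal component of log2 CPM (12.8% of the variance) changed sign once along the library numbering and parted 31 earlier from 29 later libraries. All 3 vehicle libraries and all those of Menthae Herba and Saposhnikoviae Radix were earlier. All Soyo-san, Okbyeongpung-san and Soshiho-tang libraries were later, and Saengmaek-san and Guibi-tang had libraries on both sides. For Soyo-san, Okbyeongpung-san and Soshiho-tang the extract and the place in the numbering therefore cannot be told apart by comparison with vehicle. All 12 colon epithelium markers were detected, with a summed level of 11635 to 12296 CPM in vehicle and 11768 to 13773 CPM in high-dose Guibi-tang. Of 13 leukocyte markers, ELANE, S100A8 and S100A12 were at 0 in every library, and 10 of the 13 stayed under 1 CPM. The summed leukocyte list lay between 10.9 and 11.9 CPM in vehicle and between 10.1 and 12.1 CPM in high-dose Guibi-tang. Of 7 fibroblast markers 5 stayed under 1 CPM, with sums of 2.88 to 3.29 CPM in vehicle and 1.83 to 2.09 CPM in high-dose Guibi-tang. Of 5 endothelial markers 3 stayed under 1 CPM, with sums of 1.71 to 2.44 and 1.92 to 2.00 CPM. The mitochondrial share of counts was 12.8 to 13.5% in vehicle and lower in the high-dose groups, at 10.4 to 12.3% with Guibi-tang, 10.6 to 11.1% with Soyo-san and 10.4 to 12.5% with Okbyeongpung-san. It was also lower with high-dose Menthae Herba at 11.1 to 12.1%, Saposhnikoviae Radix at 10.1 to 11.3% and Saengmaek-san at 10.0 to 12.3%. The part of the fibroblast sum and of the mitochondrial share in the results was not tested.

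The genes fall into 1 cluster and 4 separate places. CXCL8, CXCL1, CXCL5, CXCL3 and CXCL2 lie in that order on chromosome 4 within 358.6 kb (RefSeq, GRCh38.p14), from 73740569 to 74099195. CXCL10 lies further along the same chromosome, at 76021118 to 76023497. CCL20 is on chromosome 2 at 227813842 to 227817556, CX3CL1 on chromosome 16 at 57372490 to 57385044, and CXCL16 on chromosome 17 at 4733533 to 4739928.

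The 150 bases before the start site are shown for the 6 chemokines whose levels differed most between extracts, and for CXCL10 as a chemokine that differed less, because NF-kB recognition sequences are known from promoters of this family. They are from the RefSeq promoter table (GRCh38.p14), 5′ to 3′ on the strand of the gene, which held 7 of the 9 genes. Capitals mark matches to GGGAATTTCCC, to GGAATTTCC or to the general NF-kB consensus, merged where they overlap.
CXCL1 (chr4:73869243-73869392, plus strand): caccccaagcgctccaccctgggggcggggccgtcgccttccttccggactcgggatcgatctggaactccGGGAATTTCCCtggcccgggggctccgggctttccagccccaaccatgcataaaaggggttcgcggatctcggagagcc
CXCL2 (chr4:74099196-74099345, minus strand): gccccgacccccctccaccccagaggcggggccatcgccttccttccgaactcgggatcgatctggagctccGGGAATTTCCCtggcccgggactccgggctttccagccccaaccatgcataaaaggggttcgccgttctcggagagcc
CXCL3 (chr4:74038690-74038839, minus strand): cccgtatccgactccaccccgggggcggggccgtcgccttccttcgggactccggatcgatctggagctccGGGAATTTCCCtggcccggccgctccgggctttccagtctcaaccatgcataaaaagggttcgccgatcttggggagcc
CXCL5 (chr4:73998678-73998827, minus strand): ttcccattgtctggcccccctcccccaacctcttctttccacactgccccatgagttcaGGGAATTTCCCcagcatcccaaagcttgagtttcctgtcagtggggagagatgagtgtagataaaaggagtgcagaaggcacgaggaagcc
CXCL8 (chr4:73740419-73740568, plus strand): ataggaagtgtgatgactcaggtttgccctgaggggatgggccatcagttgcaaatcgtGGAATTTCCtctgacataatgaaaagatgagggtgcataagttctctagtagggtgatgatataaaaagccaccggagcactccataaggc
CCL20 (chr2:227813692-227813841, plus strand): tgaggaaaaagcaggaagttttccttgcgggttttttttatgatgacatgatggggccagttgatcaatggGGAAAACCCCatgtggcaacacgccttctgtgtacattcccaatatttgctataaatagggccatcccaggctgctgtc
CXCL10 (chr4:76023498-76023647, minus strand): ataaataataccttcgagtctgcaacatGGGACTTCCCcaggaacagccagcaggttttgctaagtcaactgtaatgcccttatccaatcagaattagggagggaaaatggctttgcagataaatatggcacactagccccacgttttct

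The longest run of bases common to the promoters of CXCL1, CXCL2, CXCL3 and CXCL5 is GGGAATTTCCC, an NF-kB type sequence of 11 bases. In CXCL1 and CXCL3 it spans bases -79 to -69, in CXCL2 bases -78 to -68, and in CXCL5 bases -91 to -81, counted back from the start. Searched on both strands of the 250 bases before the start, 0.0769% of all 35116 promoters in the table held it. The shorter GGAATTTCC, which lies within every match of the longer one, was found in 0.413% of promoters. It added CXCL8 at bases -91 to -83 and CXCL10 at bases -176 to -168. CCL20 held neither, but matched the NF-kB consensus at bases -79 to -70 on the opposite strand, as 5.21% of promoters did at some place. The sequence TGANTCA, the core site of AP-1 factors, was found in CXCL8 and in 6.57% of promoters. The sequence TATAAA was found in CXCL8 and CCL20 and in 10.7% of promoters, and GCATAAAA in CXCL1, CXCL2 and CXCL3 and in 0.675%. The 150 bases of CXCL1 and CXCL3 were identical at 86.0% of positions without gaps. These are matches of letters and do not show binding.

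Guibi-tang, Soyo-san and Okbyeongpung-san carried high levels of CXCL1, CXCL2, CXCL3, CXCL5, CXCL8 and CCL20 at every dose, while in all Menthae Herba, Saposhnikoviae Radix and Saengmaek-san groups their means were far lower. The mean CXCL1 level with high-dose Guibi-tang was 13.8 times that of vehicle, and the mean CXCL8 level 3.54 times. For CXCL1 the low- and medium-dose Soshiho-tang libraries lay between these sets. The high-dose library lay within the range of the 3 decoctions over all doses, but below all of their high-dose libraries. CXCL16 differed little between any of the groups. In bulk RNA a change in the number of cells that express a gene cannot be told apart from a change in RNA per cell.

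**Figure D1:**
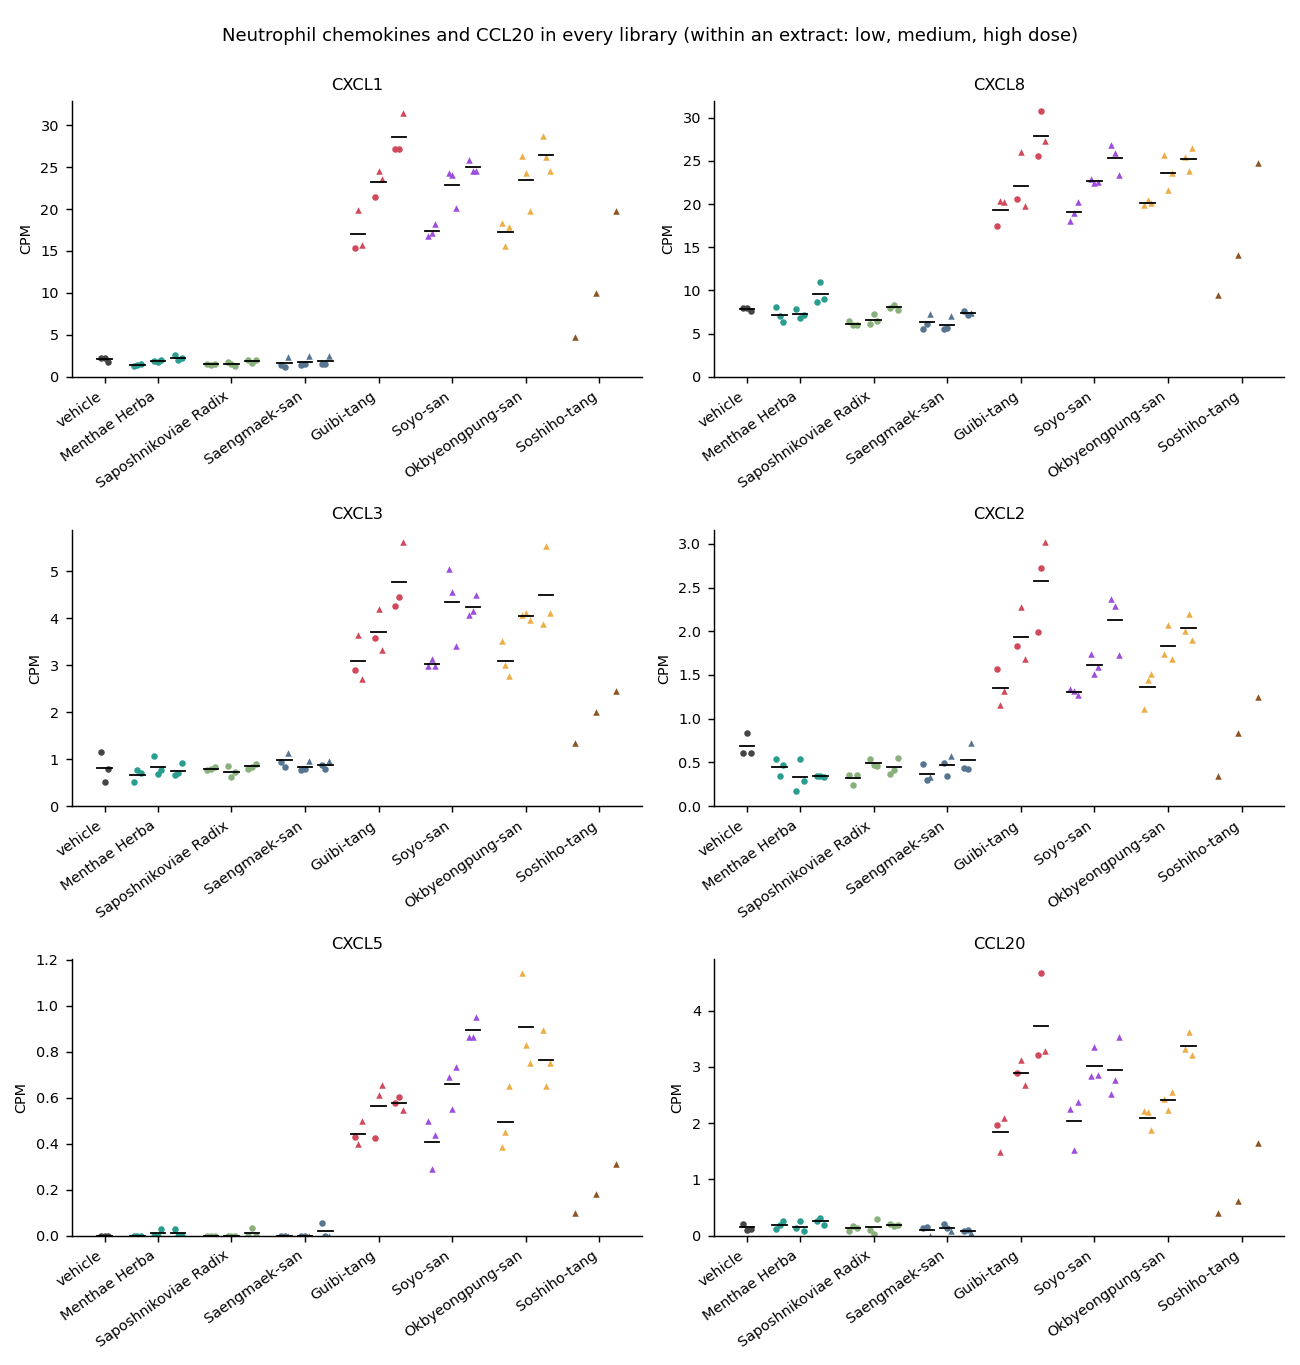
CPM of CXCL1, CXCL8, CXCL3, CXCL2, CXCL5 and CCL20 (y axis, linear from 0) in each of 60 libraries, by extract with low, medium and high dose from left to right (x axis). Circles are earlier and triangles later libraries in the numbering, and bars are means of 3. All 9 CXCL1 points of Guibi-tang lie between 15.4 and 31.4 CPM, above the vehicle points at 1.80 to 2.22.

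CXCL1, which is known for early neutrophil recruitment, was measured in vehicle libraries at 2.22, 2.20 and 1.80 CPM. High-dose Guibi-tang libraries held 27.1, 27.2 and 31.4 CPM, medium-dose libraries 21.4, 24.6 and 23.6 CPM, and low-dose libraries 15.4, 19.9 and 15.7 CPM. No Guibi-tang library came near the vehicle range, and the lowest of them was the first low-dose library. With Soyo-san the levels were 25.9, 24.6 and 24.5 CPM at the high dose, 24.3, 24.1 and 20.1 CPM at the medium dose, and 16.8, 17.2 and 18.3 CPM at the low dose. With Okbyeongpung-san they were 28.7, 26.2 and 24.5 CPM at the high dose, 26.4, 24.3 and 19.7 CPM at the medium dose, and 18.4, 15.6 and 17.8 CPM at the low dose. At the high dose every Guibi-tang library lay above every Soyo-san library and Okbyeongpung-san overlapped both, while at the medium and low doses all 3 decoctions overlapped. The fitted log2 change against vehicle was 3.78 ± 0.14 (SE) for high-dose Guibi-tang, 3.59 ± 0.14 for Soyo-san and 3.67 ± 0.14 for Okbyeongpung-san.

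Ordered by mean CXCL1 level, high-dose Guibi-tang came first at 28.6 CPM ± 2.47 (SD, n = 3), then high-dose Okbyeongpung-san at 26.5 ± 2.11 and high-dose Soyo-san at 25.0 ± 0.760. The 3 medium-dose groups followed at 23.5, 23.2 and 22.8 CPM, and each neighbour among these 6 groups overlapped the next. The single high-dose Soshiho-tang library, at 19.8 CPM, lay below the means of all 6 and beside the lowest medium-dose Okbyeongpung-san library at 19.7 CPM. The 3 low-dose groups, at 17.4 CPM with Soyo-san, 17.3 with Okbyeongpung-san and 17 with Guibi-tang, overlapped each other. After the medium and low doses of Soshiho-tang came high-dose Menthae Herba at 2.26 ± 0.327 and vehicle at 2.07 ± 0.233. The 10 groups from there to the lowest, low-dose Menthae Herba at 1.37 ± 0.0713, each overlapped their neighbour.

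CXCL8, a well-studied human neutrophil chemokine, had vehicle levels of 7.99, 7.95 and 7.64 CPM. High-dose Guibi-tang libraries held 25.6, 30.7 and 27.3 CPM, medium-dose libraries 20.5, 26.1 and 19.8 CPM, and low-dose libraries 17.5, 20.3 and 20.2 CPM. Even the lowest of these 9 lay well above the highest vehicle library. The log2 changes against vehicle were 1.83 ± 0.09 at the high, 1.49 ± 0.10 at the medium and 1.29 ± 0.10 at the low dose. The 9 Soyo-san libraries ran from 18.1 to 26.8 CPM with a median of 22.6, and the 9 Okbyeongpung-san libraries from 19.9 to 26.5 CPM with a median of 23.6. CXCL8 started higher than the other neutrophil chemokines and at the high dose of Guibi-tang its ratio to vehicle was the smallest of the 6.

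CXCL3 had vehicle levels of 1.14, 0.523 and 0.794 CPM and high-dose Guibi-tang levels of 4.27, 4.44 and 5.62 CPM. CXCL2 had vehicle levels of 0.604, 0.837 and 0.611 CPM and high-dose Guibi-tang levels of 1.99, 2.72 and 3.02 CPM. For both genes all 3 Guibi-tang libraries lay above all 3 vehicle libraries, as they did for 11.2% of all genes tested. The log2 changes were 2.56 ± 0.18 for CXCL3 and 1.89 ± 0.21 for CXCL2. At the low dose of Guibi-tang CXCL2 was at 1.57, 1.16 and 1.31 CPM and CXCL3 at 2.91, 3.65 and 2.7 CPM, still above every vehicle library. Both encode near copies of CXCL1, and 3.33% of the values of each were not whole numbers, as arises where RSEM divides a read between genes. None of the CXCL1 or CXCL8 values were fractional.

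CXCL5, another CXCR2 ligand, was at 0 in all 3 vehicle libraries and in 26 of the 60 libraries. High-dose Guibi-tang libraries held 0.578, 0.605 and 0.548 CPM, high-dose Soyo-san 0.863, 0.863 and 0.952 CPM, and high-dose Okbyeongpung-san 0.893, 0.650 and 0.752 CPM. Each of the 9 Guibi-tang, 9 Soyo-san and 9 Okbyeongpung-san libraries had CXCL5 counts. Against a floor of 3 counts over the vehicle libraries together, or 0.0298 CPM, CXCL5 was at least 19.4-fold higher with high-dose Guibi-tang, at least 29.99-fold with Soyo-san and at least 25.7-fold with Okbyeongpung-san. Its largest mean, 0.908 CPM, was with medium-dose Okbyeongpung-san, where the bound was 30.5-fold. The floor covers counting error only.

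CCL20 was barely detected in vehicle, at 0.201, 0.105 and 0.122 CPM. High-dose Guibi-tang libraries held 3.22, 4.68 and 3.29 CPM, medium-dose libraries 2.89, 3.13 and 2.67 CPM, and low-dose libraries 1.97, 1.48 and 2.10 CPM. The log2 change at the high dose was 4.72 ± 0.31, the largest among the genes with counts in vehicle. High-dose Soyo-san libraries held 2.52, 2.76 and 3.54 CPM and high-dose Okbyeongpung-san libraries 3.32, 3.62 and 3.21 CPM. None of these libraries came near the highest vehicle library.

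By the edgeR quasi-likelihood test with Benjamini-Hochberg adjustment over 17049 genes, these 6 of the 9 chemokines were called higher than vehicle with high-dose Guibi-tang, where 1.28% of all genes were called higher. The same 6 were called at the medium dose, where 0.575% of genes were called higher, and at the low dose, where 0.504% were. With Soyo-san the 6 were called at the high, medium and low dose beside 8.03%, 5.57% and 2.04% of all genes. With Okbyeongpung-san they were called beside 4.36%, 2.17% and 4.74% of all genes. The genes were chosen with these contrasts known, so the counts are not evidence of their own. All 9 passed the filter on low counts, but CXCL5, CCL20 and CXCL10 would not have passed without the libraries of these 3 decoctions. All these comparisons share the same 3 vehicle libraries. The median log2 change of the 9 genes with high-dose Guibi-tang was 1.89, also with CXCL5 set at its bound, and that of all genes tested was 0.01.

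Place in the library numbering could be set beside these levels in the extracts found on both sides. Over all doses the 4 earlier Guibi-tang libraries held 15.4 to 27.2 CPM of CXCL1, and the 5 later ones 15.7 to 31.4 CPM. At each single dose every later Guibi-tang library was above every earlier one. The 6 earlier Saengmaek-san libraries held 1.14 to 1.56 CPM and the 3 later ones 2.31 to 2.45 CPM. Later Saengmaek-san libraries were thus above earlier ones and still under every Guibi-tang library. A term for the later set in the fit gave CXCL1 a log2 difference of 0.29 ± 0.07. For CXCL8 the term was 0.14 ± 0.06, for CXCL3 0.23 ± 0.11 and for CCL20 -0.23 ± 0.17.

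Comparison of Guibi-tang with Saengmaek-san at the same dose needs no vehicle library. The same 6 chemokines were called higher with Guibi-tang at the high dose, where 0.328% of all genes were called higher. They were called again at the medium dose beside 0.37% of genes and at the low dose beside 0.17%. For CXCL1 the log2 differences were 4.01 ± 0.15, 3.76 ± 0.15 and 3.43 ± 0.15 from the high to the low dose. For CCL20 they were 5.54 ± 0.35, 4.35 ± 0.32 and 4.13 ± 0.35. High-dose Saengmaek-san libraries held only 0.0812, 0.0919 and 0.0480 CPM of CCL20, and none of the 9 Saengmaek-san libraries exceeded the highest vehicle library.

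Levels differed less between doses than between these decoctions and vehicle. Against the low dose, the high dose of Guibi-tang had 5 chemokines called higher, CXCL1, CXCL2, CXCL3, CXCL8 and CCL20, beside 0.211% of all genes. The log2 differences were 0.75 ± 0.11 for CXCL1, 0.92 ± 0.19 for CXCL2, 0.62 ± 0.15 for CXCL3, 0.54 ± 0.08 for CXCL8 and 1.03 ± 0.21 for CCL20. CXCL1 and CXCL8 were called whichever library was left out. The count was 2 without the second high-dose library, 3 without the third high-dose, the second low-dose or the third low-dose library, and 4 without either first library. It was 1, CXCL1, in a fit of these 2 groups only. Within the earlier libraries 2 high-dose libraries stood against 1 low-dose library, so no count is given there. Soyo-san had 2 called, CXCL1 at 0.52 ± 0.11 and CXCL8 at 0.41 ± 0.09, beside 0.088% of genes. Okbyeongpung-san had CXCL1 alone, at 0.61 ± 0.11, which was the single gene of the 17049 called in that comparison (0.00587%). The calls with Soyo-san were lost without its first or its second high-dose library, and that with Okbyeongpung-san likewise without its first or its second. In ratio, CXCL1 at the high over the low dose was 1.68 with Guibi-tang, 1.43 with Soyo-san and 1.53 with Okbyeongpung-san.

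Soshiho-tang, with 1 library per dose and no test, had the largest ratio of high-dose to low-dose CXCL1. CXCL1 was at 4.73 CPM at the low dose, 9.99 CPM at the medium dose and 19.8 CPM at the high dose, with exact 95% Poisson intervals of 3.83 to 5.78, 8.85 to 11.3 and 18.0 to 21.7 CPM that cover counting error only. That is 4.19 times from low to high. CXCL8 went from 9.41 to 14.1 and 24.8 CPM, and CXCL3 from 1.34 to 2.01 and 2.44 CPM. CCL20 went from 0.398 to 0.620 and 1.64 CPM and CXCL5 from 0.0995 to 0.182 and 0.311 CPM. CXCL2 was at 0.348 CPM at the low dose, under all 3 vehicle libraries, and at 0.839 and 1.24 CPM at the medium and high dose. At the high dose CXCL8 was within the range of the high-dose libraries of the other 3 decoctions. CXCL1, CXCL2, CXCL3, CXCL5 and CCL20 were below all of those libraries. CXCL16 was flat at 10.0, 9.52 and 9.94 CPM.

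Menthae Herba, Saposhnikoviae Radix and Saengmaek-san gave 1 call in 9 comparisons with vehicle, and 7 when the earlier libraries were fitted alone. Those 7 were calls of CXCL1, CXCL2 or CXCL8. CXCL8 with high-dose Menthae Herba was above vehicle, at 1.22 times its mean, and the rest were below it. In that fit calls over the whole table rose too, from 10 to 522 with low-dose Menthae Herba and from 71 to 480 with medium-dose Saengmaek-san. In the main fit CXCL2 was called lower with high-dose Menthae Herba, at 0.341, 0.348 and 0.335 CPM and a log2 change of -1.01 ± 0.27, where 3.98% of all genes were called lower. The call was lost without the second vehicle library, which had the highest CXCL2 level of the 3. None of the 9 chemokines were called with medium-dose or low-dose Menthae Herba (0.739% and 0.0587% of genes called in either direction). None were called with high-, medium- or low-dose Saposhnikoviae Radix (0.499%, 0.0293% and 0.17%) or Saengmaek-san (4.28%, 0.416% and 0.0938%). In these 8 comparisons without a call in edgeR, between 0 and 3 of the 9 had an unadjusted p under 0.05. DESeq2 called 1, CXCL8 with medium-dose Saengmaek-san, where its mean was 0.768 times that of vehicle. CXCL2 means of all 9 groups were below vehicle, from 0.319 CPM with low-dose Saposhnikoviae Radix to 0.527 CPM with high-dose Saengmaek-san, against 0.684 CPM ± 0.132 in vehicle.

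Within Menthae Herba the high dose exceeded the low dose for CXCL1 (1.97 to 2.61 against 1.32 to 1.45 CPM) and CXCL8 (8.63 to 11.0 against 6.37 to 8.12 CPM). Both were called, beside 1.13% of genes called higher, with log2 differences of 0.72 ± 0.21 and 0.41 ± 0.10, though not CXCL1 under a replicate block. High and low doses of Saposhnikoviae Radix and Saengmaek-san had no chemokine called by edgeR or DESeq2, with 1 of the 9 at an unadjusted p under 0.05 in each, beside 0.0293% and 0.0235% of genes called.

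CXCL10, CXCL16 and CX3CL1 differed less between the extracts. CXCL16, an epithelial chemokine for CXCR6-bearing T cells that also acts as a scavenger receptor, was at 10.7, 10.7 and 10.3 CPM in vehicle and 11.9, 11.3 and 11.2 CPM with high-dose Guibi-tang. Its log2 change was 0.12 ± 0.08, and over the 60 libraries it ran only from 8.33 to 11.9 CPM. CX3CL1, the ligand of CX3CR1, was at 0.671, 0.340 and 0.489 CPM in vehicle and 0.940, 1.02 and 0.823 CPM with high-dose Guibi-tang. These groups did not overlap and the log2 change of 0.93 ± 0.28 was not called, although it was with a replicate block, with a term for the library numbering and within the earlier libraries alone. CXCL10 was at 0.134, 0.209 and 0.0306 CPM in vehicle and 0.325, 0.465 and 0.183 CPM with high-dose Guibi-tang, so that the groups overlapped. Its log2 change was 1.40 ± 0.48 on 1 to 20 counts per library, and it was not called in any of the 27 comparisons.

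**Figure D2:**
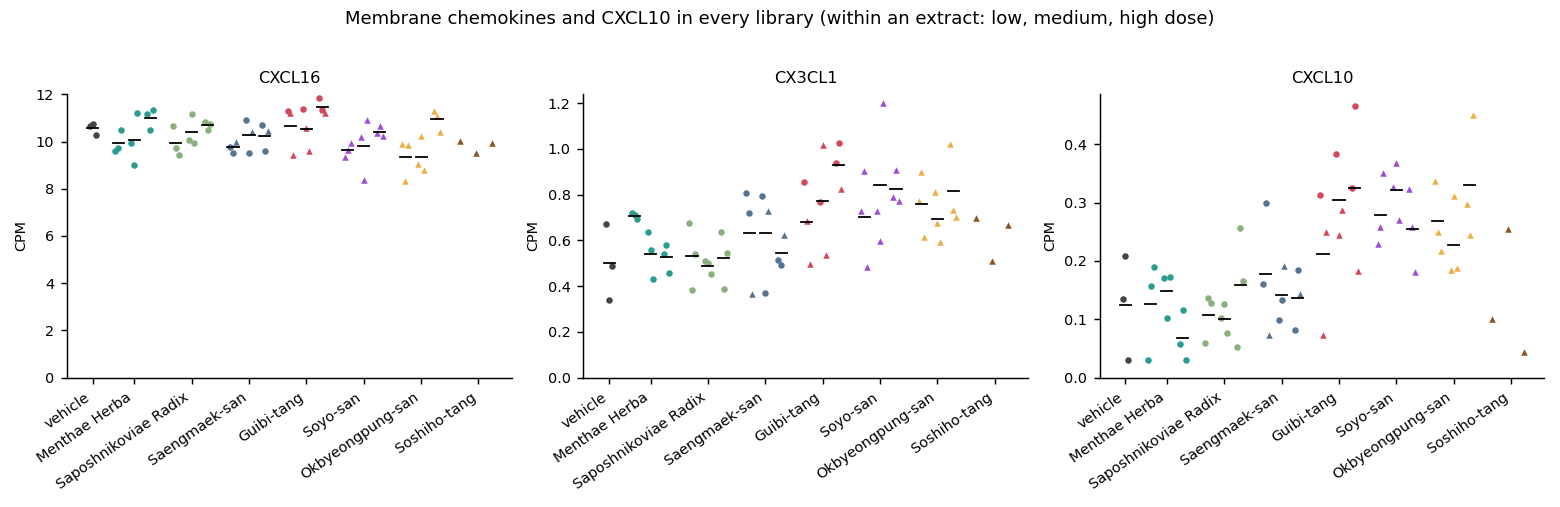
CPM of CXCL16, CX3CL1 and CXCL10 (y axis, linear from 0) in each of 60 libraries, drawn by extract and dose as in the plot of the other 6 chemokines. CXCL16 stays between 8.33 and 11.9 CPM, and the CXCL10 points of high-dose Guibi-tang (0.183 to 0.465 CPM) overlap those of vehicle (0.0306 to 0.209 CPM).

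Scaled per kilobase of exon (GENCODE 29), which allows levels to be compared between genes, CXCL16 was highest in vehicle at 3.78 CPM per kb ± 0.0905, then CXCL8 at 3.46 ± 0.0851 and CXCL1 at 1.60 ± 0.18. With high-dose Guibi-tang CXCL1 was highest at 22.1 CPM per kb ± 1.90, followed by CXCL8 at 12.3 ± 1.16 and CXCL16 at 4.10 ± 0.125. CCL20, the seventh of the 9 in vehicle at 0.0896 CPM per kb, was the fourth with high-dose Guibi-tang at 2.34 CPM per kb.

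Genes beside the chromosome 4 cluster changed far less with high-dose Guibi-tang than those expressed inside it. CXCL6, a neutrophil chemokine inside the cluster that was not in the chosen set, rose from 0.201, 0.288 and 0.122 CPM in vehicle to 2.13, 2.93 and 3.11 CPM with high-dose Guibi-tang. Its log2 change was 3.69 ± 0.32 (edgeR adjusted p = 2.34e-12), and GGGAATTTCCC lies at bases -90 to -80 of its promoter. Of other genes named below, the promoters of ICAM1, ZC3H12A, POU2F2, TNFAIP3, BIRC3 and NFKBIA did not hold that sequence. ICAM1 and NFKBIA held GGAATTTCC, TNFAIP3 and BIRC3 matched the NF-kB consensus, and ZC3H12A and POU2F2 matched neither. PF4V1, PF4 and PPBP, the platelet chemokines of the cluster, had too few counts to be tested. Within 500 kb on either side, MTHFD2L had a log2 change of 0.07 ± 0.07 (adjusted p = 0.670) and ANKRD17, which reaches into that distance, -0.01 ± 0.04 (adjusted p = 0.976). RASSF6 had 0.32 ± 0.12 (adjusted p = 0.143), and was called with high-dose Soyo-san at 0.38 and Okbyeongpung-san at 0.39 (adjusted p = 0.0281 and 0.0368). EREG, an EGF receptor ligand, fell by 0.23 on the log2 scale (SE 0.07, adjusted p = 0.0445 by edgeR), and AREG had a change of -0.14 ± 0.11 (adjusted p = 0.606).

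**Figure D3:**
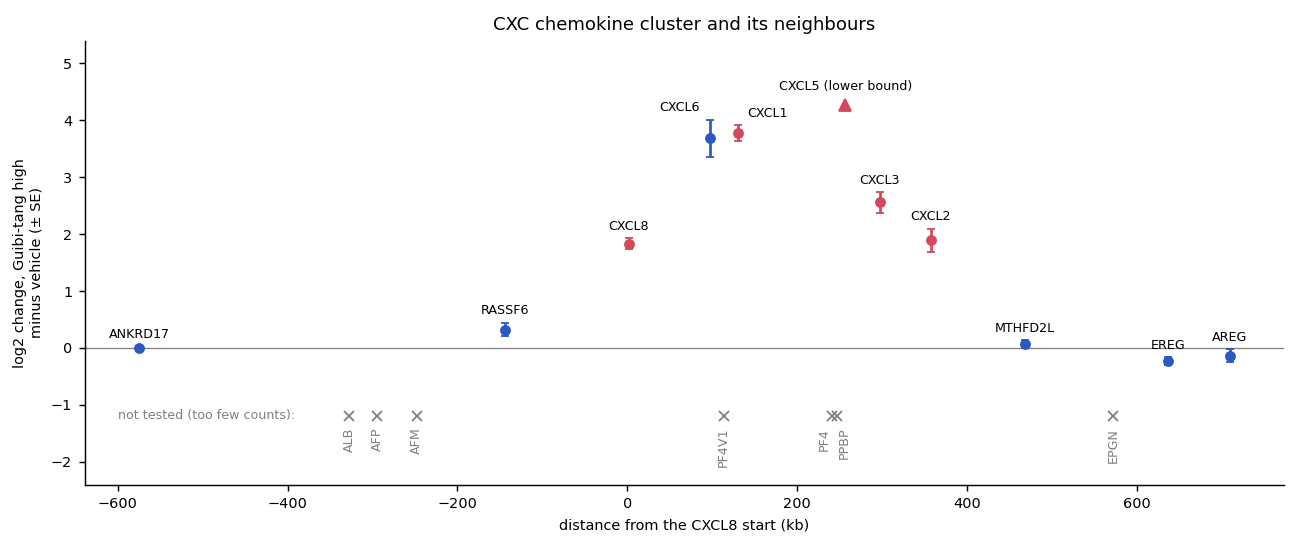
Fitted log2 change with high-dose Guibi-tang against vehicle (y axis, ± SE) by distance from the CXCL8 start in kb (x axis). Red points are the described chemokines, blue points other tested genes, the triangle is the lower bound of CXCL5, and crosses, placed below 0 without a value, are genes not tested. CXCL6 and CXCL1 stand at 3.69 and 3.78, and the genes outside the cluster lie between -0.23 and 0.32.

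Signalling genes around the chemokines were read in lists. Of 21 other chemokine ligands 6 were expressed enough to be tested, and CXCL6 alone was called with high-dose Guibi-tang (DESeq2 gave it no adjusted p). It was called in all 9 comparisons of Guibi-tang, Soyo-san and Okbyeongpung-san with vehicle. Of 18 chemokine receptors 5 were tested and 0 called by edgeR, with 0 at an unadjusted p under 0.05 and 0 called by DESeq2. Of 4 proteins that shed membrane chemokines (ADAM10, ADAM17 and the inactive rhomboids RHBDF1 and RHBDF2), 0 were called by edgeR or DESeq2 with high-dose Guibi-tang and 1 had an unadjusted p under 0.05. That was ADAM17, with a log2 change of 0.14 ± 0.05 (edgeR adjusted p = 0.159). Among 20 cytokines that induce chemokines, 8 were tested and 2 rose. IL17C, an epithelial cytokine barely detected in vehicle, rose from 0.0928 to 0.917 CPM with a log2 change of 3.30 ± 0.41 (edgeR adjusted p = 1.00e-07). DESeq2 gave 4 of the 8 an adjusted p and did not call IL17C. TNFSF15 rose by 0.28 ± 0.08 (adjusted p = 0.0355), a call lost without any 1 of the vehicle libraries or without the first or second Guibi-tang library (adjusted p = 0.0657 to 0.171).

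Of 15 feedback inhibitors of NF-kB, all tested, 4 rose and 2 fell with high-dose Guibi-tang, where 0.974% of all genes fell, with a list median of 0.13. BIRC3, an inhibitor of apoptosis that acts in TNF receptor signalling, rose by 1.26 ± 0.12 on the log2 scale (edgeR adjusted p = 5.24e-11). TNFAIP3, the ubiquitin-editing enzyme A20, rose by 0.79 ± 0.15 (adjusted p = 0.000869) and NFKBIA, the inhibitor that holds NF-kB in the cytoplasm, by 0.45 ± 0.06 (adjusted p = 1.04e-06). TNFAIP2 rose by 0.30 ± 0.05 (adjusted p = 1.54e-05). NFKBIZ fell by 0.27 (SE 0.06, adjusted p = 0.00371) and N4BP1 by 0.16 (SE 0.04, adjusted p = 0.0389). NFKBIZ lost its call without the third Guibi-tang library (adjusted p = 0.0625), and N4BP1 without any 1 of the 6 libraries (0.0626 to 0.174). Neither was particular to Guibi-tang. DESeq2 called NFKBIZ in every comparison of an extract with vehicle, all of which share the same vehicle libraries. It called N4BP1 also with every dose of Menthae Herba, Soyo-san and Okbyeongpung-san and with high-dose Saengmaek-san, but not with medium- or low-dose Guibi-tang.

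Of 13 NF-kB kinases and subunits, with a list median of 0.05, NFKB2 rose by 0.30 ± 0.08 (edgeR adjusted p = 0.0226) and RELB by 0.31 ± 0.08 (adjusted p = 0.0133). These belong to the non-canonical branch. Neither was called when vehicle and high-dose Guibi-tang were fitted alone. NFKB2 was lost without the first or the third vehicle or the third Guibi-tang library (adjusted p = 0.0831 to 0.143). RELB was lost without the second or the third vehicle or the first or second Guibi-tang library (0.0576 to 0.0906). Of 24 tested receptors and adaptors upstream of NF-kB 0 were called by edgeR with high-dose Guibi-tang, although 5 had an unadjusted p under 0.05 and DESeq2 called 1, TLR4, the receptor for bacterial lipopolysaccharide. ZC3H12A, a nuclease that degrades chemokine mRNA, was the single call among 9 regulators of mRNA decay, at 0.68 ± 0.06 (adjusted p = 5.06e-12). Of 12 AP-1 and C/EBP factors FOS alone was called and fell by 0.36 (SE 0.09, adjusted p = 0.0196). That call was lost without the first or the third vehicle or the first or second Guibi-tang library (0.0949 to 0.135). DESeq2 called FOS with every dose of Guibi-tang, Soyo-san and Okbyeongpung-san. It called FOS also with medium-dose Menthae Herba, low-dose Saposhnikoviae Radix and high- and medium-dose Saengmaek-san.

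Interferon response genes, the list that goes with CXCL10, were called in 1 direction, with smaller changes than the neutrophil chemokines. Of 18 tested, 7 rose with high-dose Guibi-tang and none fell, with a list median of 0.32. IFIT3 rose by 0.54 ± 0.09 (edgeR adjusted p = 6.06e-05), IFIH1 by 0.49 ± 0.09 (adjusted p = 0.000173) and IFIT2 by 0.54 ± 0.11 (adjusted p = 0.00252). IRF9 rose by 0.63 ± 0.15 (adjusted p = 0.0102), and was lost without the third vehicle library (0.108). OAS1 rose by 0.37 ± 0.10 (adjusted p = 0.0249) and IFIT1 by 0.63 ± 0.17 (adjusted p = 0.0289). OAS1 was lost without the second vehicle or the first or second Guibi-tang library (0.0670 to 0.155), and IFIT1 without any 1 of the vehicle or the second or the third Guibi-tang libraries (0.0803 to 0.181). With high-dose Okbyeongpung-san 13 of the 18 rose, beside 4.36% of all genes, and with high-dose Soyo-san 12, beside 8.03%, and none fell in either. With Menthae Herba, Saposhnikoviae Radix and Saengmaek-san edgeR called 0 of the 18 in each of 9 comparisons, with 0 to 6 at an unadjusted p under 0.05. DESeq2 called 1, IRF9, with high-dose Menthae Herba and 0 in the other 8.

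The genes whose mean log2 CPM over the 22 groups followed CXCL1 most closely were PI3, C3, CXCL6, ICAM1, ZC3H12A, POU2F2, TNFAIP3 and BIRC3. Pearson's r, given here as a measure of likeness, was 0.997 for PI3, 0.987 for C3, 0.971 for CXCL6 and 0.970 for ICAM1. The group means fall into a high set, which includes high-dose Soshiho-tang, and a low set, with low- and medium-dose Soshiho-tang between them, so r mostly reflects that parting. Those closest to CXCL8 were PI3, C3, ICAM1, POU2F2 and ZC3H12A, from 0.987 for PI3 to 0.961 for ZC3H12A. PI3 encodes elafin, an inhibitor of neutrophil elastase, and stood at 4.40, 4.39 and 4.00 CPM in vehicle and 23.5, 22.2 and 24.7 CPM with high-dose Guibi-tang. C3, the central complement component, stood at 0.101, 0 and 0.0611 CPM and at 2.24, 2.40 and 2.7 CPM. ICAM1, the adhesion molecule that neutrophils bind, stood at 3.96, 4.37 and 3.91 CPM and at 9.69, 10.7 and 13 CPM. All 3 genes were higher in every Guibi-tang than in any vehicle library, as were 11.2% of all genes tested. In Soshiho-tang libraries PI3 was at 7.37, 12.4 and 19 CPM from the low to the high dose. Among the chemokines themselves r lay between 0.940 and 0.990 for CXCL1, CXCL2, CXCL3, CXCL5, CXCL8 and CCL20, and with CXCL16 between -0.07 and 0.09. Over the 19 groups without Guibi-tang these ranges were 0.927 to 0.992 and, with CXCL16, -0.34 to -0.22.

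**Figure D4:**
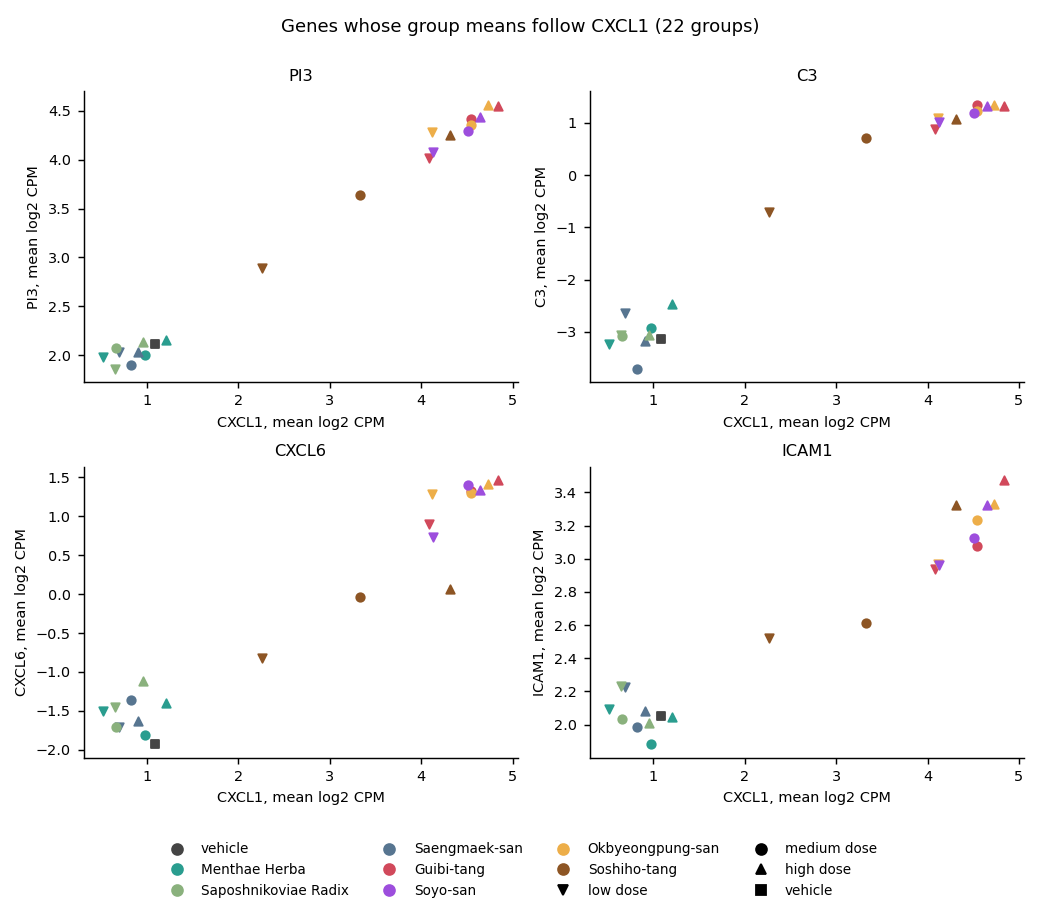
Mean log2 CPM of PI3, C3, CXCL6 and ICAM1 (y axes) against that of CXCL1 (x axis), 1 point for each of 22 groups, coloured by extract and shaped by dose. The low- and medium-dose Soshiho-tang points lie between the cluster of vehicle, Menthae Herba, Saposhnikoviae Radix and Saengmaek-san and the cluster of Guibi-tang, Soyo-san and Okbyeongpung-san.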

How the data were processed

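RNA from 60 HT29 libraries was prepared with a directional kit, per the labels' protocols. The authors deposited expected counts per gene. The submitters' processing notes name FastQC 0.11.9, Trim Galore 0.6.5, STAR 2.7.3a, RSEM 1.3.3 and GRCh38 (hg38). The annotation release is not given in the sources used here, nor is the strand setting. The counts (27.7% of values above 0 not whole) were rounded. CPM used TMM factors over all libraries. edgeR 4.0.16 (R 4.3.3, filterByExpr, quasi-likelihood with robust dispersion) was fitted to 57 libraries in 19 groups of 3 with 38 residual degrees of freedom, 27 comparisons were tested, and 17049 genes were adjusted by Benjamini-Hochberg at 0.05. Soshiho-tang entered no test. Log2 CPM used a prior count of 2. The script was tested on simulated counts. Totals of 19.5 M to 41.9 M counts per library limit precision mainly for CXCL5, CCL20 and CXCL10. Alternatives were DESeq2 1.42.0 and its size factors, no filter on low counts, a replicate block, terms or subsets for library numbering, the groups compared alone and leaving out libraries.

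The 9 chemokines, the gene lists and the tests were chosen with earlier results of these data known. Named genes outside the chemokines were those called with high-dose Guibi-tang against vehicle, up to 6 per list by smallest p, plus the 8 genes most like CXCL1 and 5 most like CXCL8 with at least 2 CPM in their highest group. RASSF6, MTHFD2L, ANKRD17, EREG, AREG, ADAM17 and TLR4 were named in addition, after their values were seen. No replicate pair was identical (chi-square per degree of freedom 1.85 to 24.3). Same-numbered replicates of Guibi-tang and Saengmaek-san at the high dose deviated together (correlations 0.14, 0.13 and 0.29), and this was the single comparison of 27 where all 3 exceeded 0.1. In both groups the first and second libraries were earlier and the third later in the numbering. Equal replicate number and place in the numbering therefore cannot be told apart here. At the medium and low doses the second libraries of the 2 extracts lay on opposite sides, with correlations of -0.06 and -0.13. The labels name no shared source for equal numbers.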

Additional observations from a re-analysis of the deposited data

How the results depend on the processing

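With high-dose Guibi-tang the 6 called chemokines became 7, with CX3CL1 added, under a replicate block, a term for library numbering and in the earlier libraries alone. Under DESeq2 the count was 3 of the 4 genes that its filter gave an adjusted p. For the other 15 comparisons with vehicle the 37 calls together became 24 of 56 with an adjusted p under DESeq2. The earlier libraries alone gave no value for the 6 of Soyo-san and Okbyeongpung-san, which have none, and took the 1 call in the other 9 to 7. That 1 call became 6 without the filter on low counts, 4 with the term for library numbering and 3 with the groups compared alone. Against low-dose Guibi-tang the 5 calls became 1 with the groups compared alone. The earlier libraries include only 1 of low-dose Guibi-tang, so no count is given for them. The 2 called NF-kB kinases and subunits became 0 with the groups compared alone. Leaving out 1 library gave 6 calls each for high- and medium-dose Guibi-tang and against Saengmaek-san, 5 to 6 at the low dose and 2 to 4 for high against low. It gave 4 to 6 feedback inhibitors and 0 to 1 kinases and subunits. In the other 15 together it gave 36 to 37 calls, where only the 3 vehicle libraries were left out in turn. Libraries were left out singly only for Guibi-tang, vehicle, and the high doses of Saengmaek-san, Soyo-san and Okbyeongpung-san. The replicate block was fitted over all 57 libraries and shared by the 19 groups. It is therefore not a paired analysis of Guibi-tang and Saengmaek-san alone, and none was run. With the block, 6 chemokines were called between them at the high dose, as in the main analysis. The block took the 2 chemokines called between high- and low-dose Menthae Herba to 1 and changed no other count of called chemokines by over 1.5 times, and no called result changed sign under any alternative run.

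The number of genes called over the whole table also moved with the settings. For high-dose Guibi-tang against vehicle it was 385, with 164 without the first vehicle library and 710 in the earlier libraries alone. It was 183 at the medium dose (61 to 794), 145 at the low dose (43 to 600), 60 for high against low (5 to 201) and 63 against high-dose Saengmaek-san (26 to 165). For high-dose Soyo-san it was 2466 (1077 to 3168), for high-dose Okbyeongpung-san 1261 (401 to 1659) and for high-dose Menthae Herba 1461 (795 to 2516). The 401 came with the term for library numbering, which also took medium-dose Soyo-san from 1682 to 506. Low-dose Menthae Herba had 10 (3 to 522), low-dose Saposhnikoviae Radix 29 (5 to 514) and medium-dose Saengmaek-san 71 (5 to 480). Scaling of Soshiho-tang libraries by DESeq2 size factors, chosen after seeing the data, gave CXCL1 at 19.7 CPM at the high dose. Depth limits CXCL5, with 0 to 31 counts per library, and CXCL10, with 1 to 20.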
